A study of Mus musculus with 12 samples.

Results

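Nuclear receptors and zinc-finger proteins make up most of a set of 6 genes that have been reported as targets of retinoic acid (RA): Nr6a1, Nr2f1, Nr2f2, Zfp703, Tshz1 and Asb4. They were chosen by symbol, with earlier results of these data known. Each was represented by 1 transcript cluster annotated to it alone, so the set holds 6 of 41345 clusters and 6 of 22180 named genes. The set is headed as transcription regulators, which 5 of the 6 encode, while Asb4 encodes an ankyrin-repeat protein with a SOCS box, a domain of ubiquitin ligase subunits. The cells were E14, a line of mouse embryonic stem (ES) cells, transduced with a short hairpin RNA. The groups were shLOXL2 with RA (day 1), shLOXL2 without RA (day 0), shCT, the control hairpin, with RA (day 1) and shCT without RA (day 0), with 3 arrays each. LOXL2 is a lysyl oxidase family member, and the series asked for its dependent genes under RA. Every RA group was sampled at day 1 and every group without RA at day 0, so RA and a day of culture cannot be told apart. Separate cultures or clones are not given for the arrays in the labels. The p-values below therefore measure only sample-to-sample spread, and part of it may be technical.

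Retinoic acid enters the nucleus and binds receptors (RAR) that sit with retinoid X receptors on direct repeats of a hexamer close to AGGTCA. Bound receptors exchange corepressors for coactivators, and the first genes induced are often transcription factors themselves. In ES cells RA ends self-renewal and switches on Hox genes. Nr6a1, also called germ cell nuclear factor, is an orphan nuclear receptor known for silencing Pou5f1 (Oct4) during this transition. Nr2f1 and Nr2f2, also called COUP-TFI and COUP-TFII, are orphan receptors that bind the same hexamer and mostly repress. Zfp703 is a zinc-finger corepressor and Tshz1 a teashirt zinc-finger factor of trunk and head patterning.

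Values are the authors' deposited log2 signals, and changes are differences of log2 values. A change passed when its limma p-value, adjusted by the Benjamini-Hochberg method over 22180 genes, was under 0.05. Array medians lay between 4.58 and 4.68, and r between any pair of arrays, across clusters, was 0.939 to 0.985. The number of arrays limits the precision. The 2 clusters annotated to Loxl2, which are also annotated to Gm21451, averaged 60.0% and 65.0% of the shCT level in shLOXL2 cells over both RA states (exact two-sided permutation p = 0.005 and 0.03 over 400 relabellings of the constructs within RA states). In a limma fit over all clusters neither passed, on average (adjusted p = 0.280 and 0.543) or within an RA state. With RA the 2 clusters stood at 53.4% and 47.2% of the shCT level, and without RA at 67.5% and 89.6%. Their mean log2 signals in shLOXL2 cells were 5.18 and 4.80 with RA, against 4.94 and 4.77 without RA. In shCT cells they were 6.09 and 5.88, against 5.50 and 4.92, so the shCT level differed more between RA states. Without RA the second cluster was not far above the array medians in either construct. For the second cluster the change without RA, -0.16 ± 0.22 (SE), was within its error, so comparisons of the constructs without RA rest on a weaker difference in Loxl2 signal. All 10 ES cell markers examined had group means above the array medians in all 4 groups. Their summed linear signal was 7011 to 7534 in shLOXL2 cells with RA, against 9237 to 10262 without RA. In shCT cells it was 6722 to 7725 with RA, against 8226 to 10766 without RA. Of the 10 markers only 3 fell past the threshold in shLOXL2 cells and 2 in shCT cells, so the sums do not stand for each marker. Of all genes 1.41% fell in shLOXL2 cells and 2.09% in shCT cells. The summed signal of 7 primitive endoderm markers was 801 to 949 in shLOXL2 cells with RA, against 432 to 463 without RA, and 650 to 1112 in shCT cells with RA, against 405 to 889 without RA. All 7 had group means above the array medians in each group. Only 1 of 7 passed for RA in each construct, where 3.46% of all genes passed in shLOXL2 cells and 4.25% in shCT cells. The gene that passed was Gata6, itself a reported RA target. In shLOXL2 cells its log2 signal was 8.57 ± 0.285 (SD, n = 3) with RA, against 6.58 ± 0.0355 without RA. In shCT cells it was 8.29 ± 0.368 with RA, against 7.02 ± 0.526 without RA. Sums of other marker lists also separated. Those of 8 fibroblast markers were 235 to 292 in shCT cells with RA, against 195 to 231 without RA, and those of 6 neural progenitor markers 241 to 327, against 183 to 222. Those of 6 trophoblast markers were 244 to 248 in shLOXL2 cells with RA, against 190 to 242 without RA. In the other construct each of these 3 sums overlapped between RA states, as did those of 5 primitive streak and mesoderm markers in each construct. In these 4 lists the genes that passed for RA were Pdgfrb in each construct and Sox1 in shCT cells. The part of these shifts in the changes with RA was not tested, and in such bulk samples fewer cells of a type and less RNA per cell cannot be told apart. Within groups 4 arrays lay at 1 end of the main axis of variation, which held 49.4% of the variance within groups. They were replicate 1 of both shLOXL2 groups and replicate 3 of both shCT groups.

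RA was accompanied by a rise of Zfp703, Tshz1 and Nr6a1 in each construct. Nr2f1, Nr2f2 and Asb4 did not pass in either construct. In shLOXL2 cells 3 of 6 rose and none fell, where 2.05% of all genes rose, 1.41% fell and thus 3.46% changed. In shCT cells the same 3 of 6 rose and none fell, where 2.16% of all genes rose, 2.09% fell and 4.25% changed. Arrays with RA lay above those without RA, with no overlap, for 3 of 6 genes in shLOXL2 cells (10.3% of all genes) and for 4 of 6 in shCT cells (10.7% of all genes). The median change over the 6 genes was 0.36 in shLOXL2 cells, beside -0.010 over all genes, and 0.51 in shCT cells, beside 0.0010 over all genes. The count stayed at 3 in each construct without the 4 arrays at the end of the axis, an alternative chosen after seeing the data. Deviations of same-numbered arrays with and without RA correlated at 0.216 to 0.558 in shLOXL2 cells and at 0.0394 to 0.631 in shCT cells. A fixed block for the number within the construct was also chosen after seeing the data. With it 1624 genes passed in shLOXL2 cells, against 768 without it, and 1800 in shCT cells, against 943. The same 3 members passed in each construct (in shLOXL2 cells limma adjusted p = 9.03e-05 for Zfp703, 0.000239 for Tshz1 and 0.00213 for Nr6a1).

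**Figure D1:**
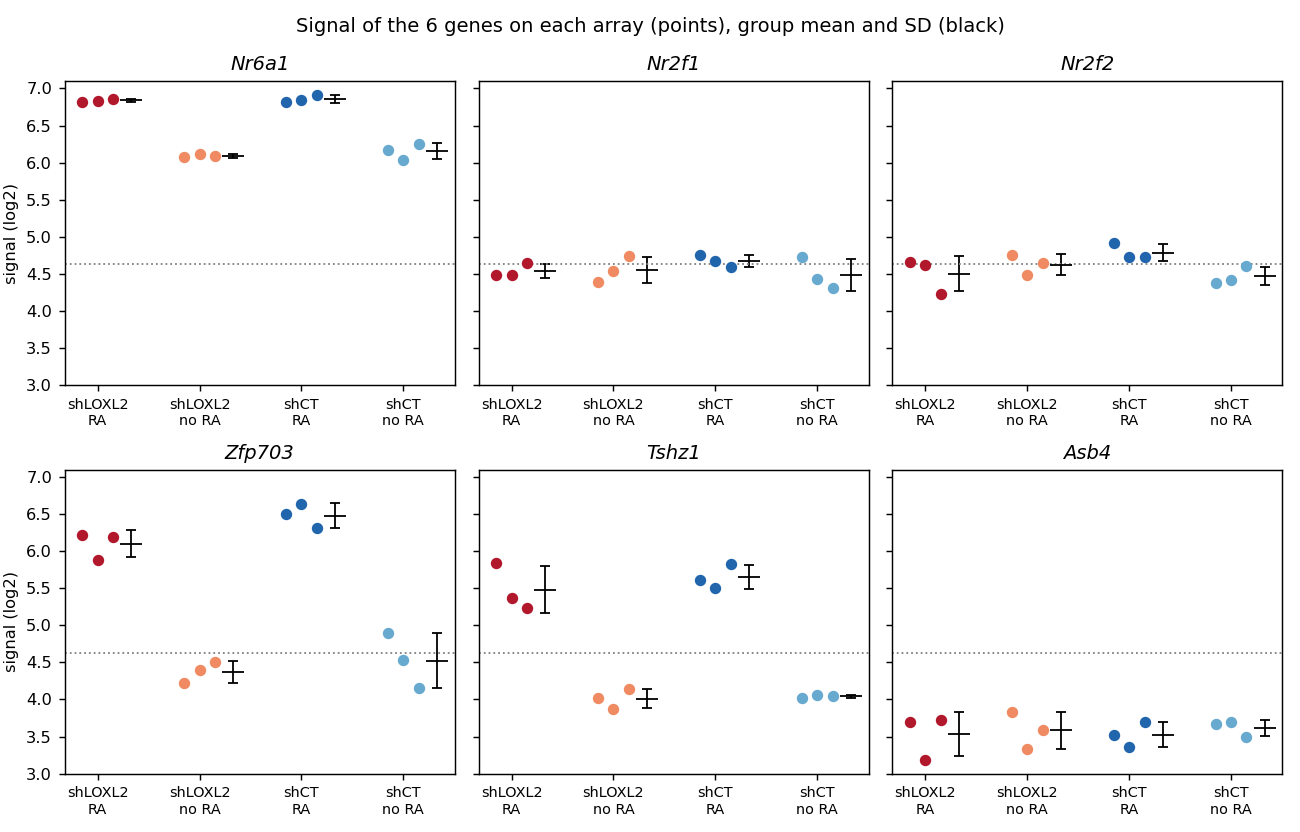
Signal of each of the 6 genes on each of the 12 arrays (points, y axis in log2 units), with the group mean and SD in black (n = 3) and the mean of the array medians as a dotted line. Nr6a1, Zfp703 and Tshz1 are higher with RA in each construct, with no overlap between arrays, while the groups of Nr2f1 and Asb4 overlap. The height of 1 gene's points against another's depends on the probes and is not compared.

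Nr6a1, the repressor of Pou5f1, showed a small rise with very little spread. Its log2 signal was 6.82, 6.83 and 6.86 on the shLOXL2 arrays with RA, against 6.07, 6.12 and 6.08 on those without RA. In shCT cells it was 6.82, 6.84 and 6.91 with RA, against 6.17, 6.04 and 6.25 without RA. Every array with RA lay above every array without RA, and within an RA state the constructs overlapped. The change was 0.75 ± 0.11 (SE, n = 3 arrays per group; 1.68-fold; limma adjusted p = 0.00134) in shLOXL2 cells and 0.71 ± 0.11 (1.63-fold; adjusted p = 0.00162) in shCT cells. The moderated SD within groups, 0.132, was among the lowest 0.523% of all genes. In size the rise was modest, since 269 of the 455 genes that rose in shLOXL2 cells and 304 of the 480 that rose in shCT cells had larger changes. By level the groups ran from shCT with RA (6.86 ± 0.0492, SD) and shLOXL2 with RA (6.84 ± 0.0226) to shCT without RA (6.15 ± 0.111) and shLOXL2 without RA (6.09 ± 0.0256), and neighbours within an RA state did not differ beyond their spread.

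The windows around the 2 start sites that RefSeq gives for Nr6a1 are shown because it is the riser whose promoter could be read, and that of Nr2f2 because it is a receptor gene that did not pass. Each window runs 5′ to 3′ along the gene, from 250 bases before to 50 bases after the start, in RefSeq's build GRCm38.p6. The 250 bases before each start are printed and the whole window was searched. Capitals mark a match on either strand to a hexamer that retinoic acid receptors are known to bind, which is AGGTCA, or else GGGTCA, or else AGTTCA, or else GGTTCA.
Nr6a1 upstream start, chr2:38926462-38926711, minus strand: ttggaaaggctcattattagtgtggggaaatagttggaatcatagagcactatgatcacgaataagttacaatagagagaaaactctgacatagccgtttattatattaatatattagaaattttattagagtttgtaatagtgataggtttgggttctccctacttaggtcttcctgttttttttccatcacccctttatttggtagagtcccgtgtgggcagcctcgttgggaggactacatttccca
Nr6a1 downstream start, chr2:38784516-38784765, minus strand: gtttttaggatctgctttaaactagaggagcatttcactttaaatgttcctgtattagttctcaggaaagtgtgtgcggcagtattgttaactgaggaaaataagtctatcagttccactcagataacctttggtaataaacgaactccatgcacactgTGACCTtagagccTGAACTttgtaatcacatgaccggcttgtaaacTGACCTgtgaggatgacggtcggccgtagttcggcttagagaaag
Nr2f2, chr7:70366747-70366996, minus strand: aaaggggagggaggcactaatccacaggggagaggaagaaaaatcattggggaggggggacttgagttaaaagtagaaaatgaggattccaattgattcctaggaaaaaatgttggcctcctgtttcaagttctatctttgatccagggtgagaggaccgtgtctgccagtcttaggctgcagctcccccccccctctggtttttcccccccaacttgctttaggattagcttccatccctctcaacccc

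The downstream Nr6a1 window held 3 of these hexamers, all on the opposite strand. AGGTCA began 91 and 45 bases before the start and AGTTCA 78 bases before it, and they are printed as their reverse complements. The upstream Nr6a1 window and the Nr2f2 window held none. Promoters of 4 of the 6 members were in the table, those of Nr6a1, Nr2f1, Nr2f2 and Asb4, with 7 windows in all. Beyond Nr6a1, only the downstream Nr2f1 window held a match, an AGTTCA 183 bases before the start. Any of the 4 hexamers occurred in 43.7% and AGGTCA in 16.3% of 32817 windows of this length, so a match is common. Direct repeats of these hexamers with a spacer of 1, 2 or 5 bases occurred in 0.222%, 0.268% and 0.0975% of windows and in none of the 7. The hexamers can overlap as parts of a repeat. A match describes the letters in a window and not a bound site, and the array does not separate transcripts from the 2 starts.

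Nr2f1 and Nr2f2, the COUP-TF genes, were near the array medians in all groups. For Nr2f1 the signals were 4.49, 4.48 and 4.65 in shLOXL2 cells with RA, against 4.38, 4.54 and 4.74 without RA. In shCT cells they were 4.75, 4.67 and 4.59 with RA, against 4.72, 4.43 and 4.31 without RA. All 4 groups overlapped. The change with RA was -0.016 ± 0.14 in shLOXL2 cells (95% interval -0.32 to 0.28; limma adjusted p = 0.977) and 0.18 ± 0.14 in shCT cells (-0.11 to 0.48; adjusted p = 0.582). Deviations of Nr2f1 from its group means followed the axis within groups at r = -0.857 over 12 arrays, where the axis itself was computed from all genes, Nr2f1 included.

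Nr2f2 did not pass, although its arrays separated in shCT cells. Its signals were 4.66, 4.61 and 4.23 in shLOXL2 cells with RA, against 4.75, 4.48 and 4.64 without RA. In shCT cells they were 4.92, 4.72 and 4.72 with RA, against 4.37, 4.42 and 4.60 without RA. The shCT arrays with RA were all above those without RA, and the shLOXL2 groups overlapped. The change was -0.12 ± 0.14 in shLOXL2 cells (95% interval -0.43 to 0.18; limma adjusted p = 0.783) and 0.32 ± 0.14 in shCT cells (0.016 to 0.63; adjusted p = 0.273). With arrays weighted by estimated quality the shCT change was 0.36 and passed (adjusted p = 0.0287), in a fit that called 5224 genes. Signals of both receptor genes lay near or below the array medians with no background level set, so these intervals describe the signal and do not bound the change of the transcripts.

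Zfp703 had the largest rise of the set. Its signals were 6.22, 5.89 and 6.19 in shLOXL2 cells with RA, against 4.22, 4.39 and 4.50 without RA. In shCT cells they were 6.50, 6.64 and 6.31 with RA, against 4.90, 4.53 and 4.15 without RA. No array with RA overlapped one without RA, and the highest array without RA was replicate 1 of shCT. The rise was 1.73 ± 0.18 in shLOXL2 cells (3.32-fold; limma adjusted p = 8.82e-05) and 1.96 ± 0.18 in shCT cells (3.88-fold; adjusted p = 2.52e-05). Among genes that rose, 31 had larger changes in shLOXL2 cells and 23 in shCT cells. The deviations of Zfp703 within groups also followed the main axis (r = -0.661 over 12 arrays). Without the 4 arrays at its end the rises were 1.59 and 1.86 in shLOXL2 and shCT cells (adjusted p = 0.00153 and 0.000593). By level the groups ran from shCT with RA (6.48 ± 0.164, SD) and shLOXL2 with RA (6.10 ± 0.184) to shCT without RA (4.53 ± 0.375) and shLOXL2 without RA (4.37 ± 0.145). Only the 2 groups without RA overlapped.

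Tshz1, the teashirt factor, was the other gene with a change over 1 log2 unit. Its signals were 5.84, 5.37 and 5.24 in shLOXL2 cells with RA, against 4.02, 3.87 and 4.14 without RA. In shCT cells they were 5.62, 5.51 and 5.82 with RA, against 4.02, 4.06 and 4.05 without RA. Arrays with and without RA were far apart in each construct, and the constructs overlapped in each RA state. The rise was 1.47 ± 0.16 in shLOXL2 cells (2.77-fold; limma adjusted p = 0.000109) and 1.60 ± 0.16 in shCT cells (3.04-fold; adjusted p = 4.23e-05). All 6 arrays without RA were below their array medians for Tshz1, as were 5 of 6 for Zfp703. No background level was set here, so the folds of these genes are understated where part of that signal is background. By level the groups ran from shCT with RA (5.65 ± 0.160, SD) and shLOXL2 with RA (5.48 ± 0.317) to shCT without RA (4.05 ± 0.0210) and shLOXL2 without RA (4.01 ± 0.132), and neighbours within an RA state did not differ beyond their spread.

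Asb4, the SOCS-box gene, was below the array median on 12 of 12 arrays. Its signals were 3.69, 3.18 and 3.72 in shLOXL2 cells with RA, against 3.83, 3.34 and 3.59 without RA. In shCT cells they were 3.52, 3.35 and 3.69 with RA, against 3.67, 3.69 and 3.49 without RA. All groups overlapped. The change was -0.055 ± 0.17 in shLOXL2 cells (95% interval -0.42 to 0.31; limma adjusted p = 0.931) and -0.096 ± 0.17 in shCT cells (-0.46 to 0.27; adjusted p = 0.854). No response of Asb4 was detected. With no background level set, these intervals describe the signal and do not bound the change of the transcript.

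**Figure D2:**
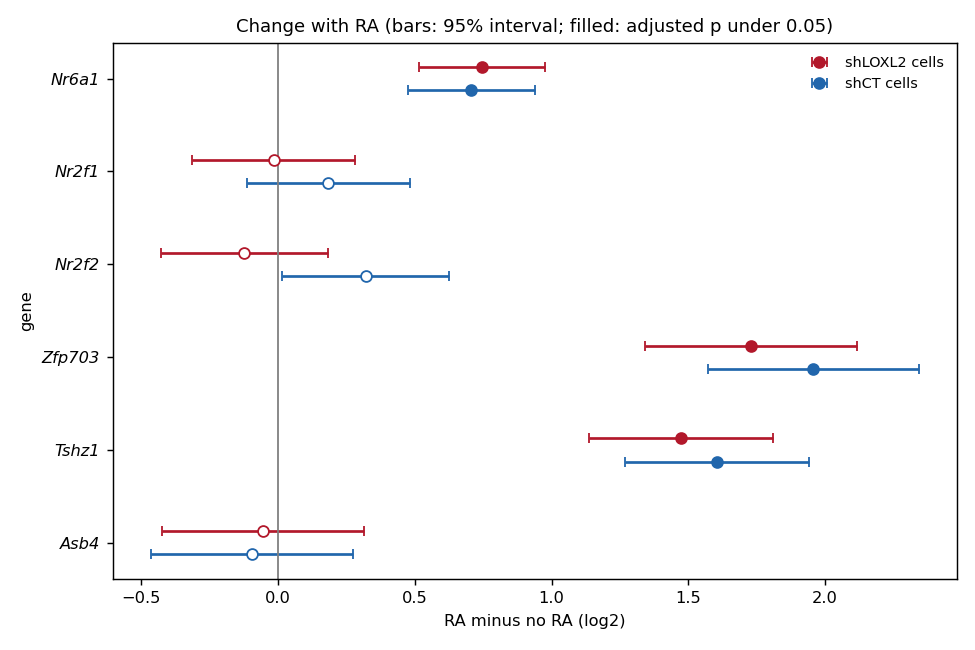
Change with RA of each gene (x axis, log2, RA minus no RA) in shLOXL2 cells (red) and shCT cells (blue), with 95% intervals of the limma fit and filled points where the adjusted p was under 0.05. Zfp703, Tshz1 and Nr6a1 lie above 0 in each construct, the intervals of Nr2f1 and Asb4 include 0 in each, and that of Nr2f2 includes 0 in shLOXL2 cells.

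LOXL2 knockdown changed none of the 6 genes past the threshold, with RA, without RA or on average. The Loxl2 clusters themselves did not pass by limma in these comparisons either, so a missing call does not exclude a change. Neither comparison within an RA state called any gene (0% of all genes), and 0.0541% of genes were called on average. In the main fit no member had an unadjusted limma p under 0.05 in any of these 3 comparisons, against 1100 of all genes with RA, 1037 without RA and 1490 on average. Without RA the arrays of the constructs overlapped for all 6 members, while they separated for 8.23% of all genes. Averaged over RA states all 6 differences were negative, with a median of -0.052, beside 0.0027 over all genes. That sign did not hold throughout, as Nr2f1 (0.0046) and Nr6a1 (0.025) were positive with array weights, Asb4 (0.0084) with arrays centred on their medians, Nr6a1 (0.0091) without the 4 arrays, and Nr2f1, Nr2f2 and Asb4 with some single arrays left out. The largest was that of Zfp703, at -0.27 ± 0.13 (95% interval -0.54 to 0.0051; limma adjusted p = 0.755). With RA, the shLOXL2 arrays lay below the shCT arrays without overlap for Zfp703 (difference -0.38 ± 0.18, adjusted p = 0.972) and Nr2f2 (-0.29 ± 0.14, adjusted p = 0.972), a separation found downward in 5.88% of all genes. Nr6a1 differed by -0.021 ± 0.11 with RA (95% interval -0.25 to 0.21) and by -0.060 ± 0.11 without RA (-0.29 to 0.17). Tshz1 differed by -0.17 ± 0.16 with RA (-0.50 to 0.17) and by -0.035 ± 0.16 without RA (-0.37 to 0.30).

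No member had an RA response that differed between constructs past the threshold, and no gene did (0% of all genes, with 652 at an unadjusted limma p under 0.05). Of the members 1, Nr2f2, had an unadjusted p under 0.05. Its RA response was lower by 0.44 on the log2 scale in shLOXL2 cells (difference -0.44 ± 0.20, 95% interval -0.87 to -0.013, limma adjusted p = 1). This difference, the knockdown difference with RA and the RA response of shCT cells share the shCT arrays with RA. For the 3 risers the differences were -0.23 ± 0.25 for Zfp703 (-0.77 to 0.32), -0.13 ± 0.22 for Tshz1 (-0.61 to 0.34) and 0.039 ± 0.15 for Nr6a1 (-0.29 to 0.37), with an adjusted p of 1 for each. The interval of Zfp703 was the widest of these and reached -0.77.

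**Figure D3:**
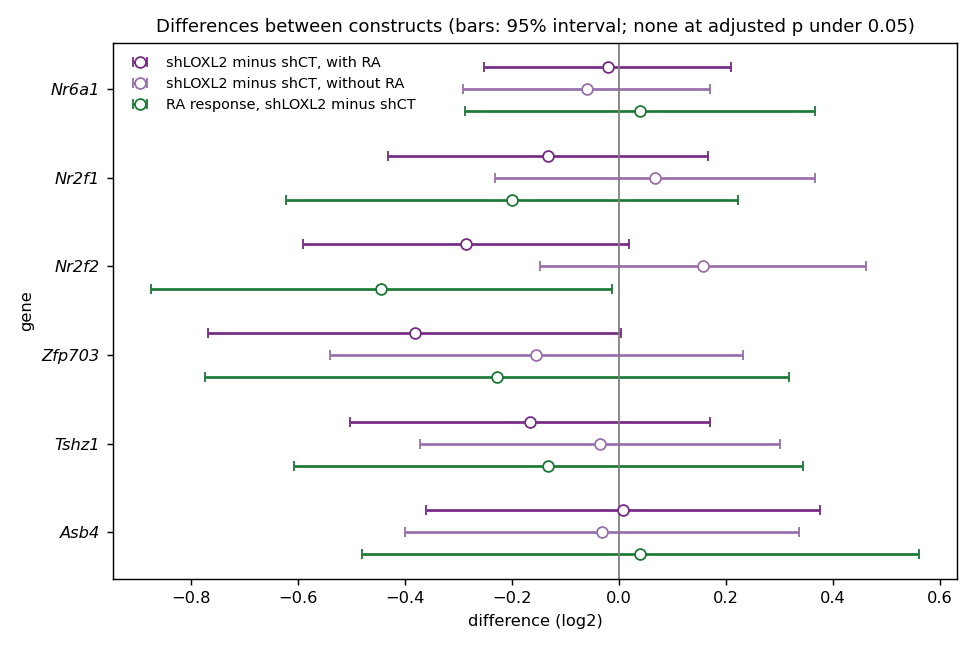
Differences between constructs for each gene (x axis, log2, 95% intervals): shLOXL2 minus shCT with RA (dark purple), shLOXL2 minus shCT without RA (light purple) and the RA response in shLOXL2 minus that in shCT (green). All points are open, as none had an adjusted p under 0.05, and only the interval of the Nr2f2 response difference (-0.87 to -0.013) leaves out 0.

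Other reported RA targets that regulate transcription were next set beside the 6 genes. Of 12 such genes 8 were measured by a cluster of their own, and 8 of 8 rose in each construct. The lists, like the members, were chosen with earlier results of these data known, so this count describes the list and is not a test. Beside this and the counts below, 2.05% of all genes rose in shLOXL2 cells and 2.16% in shCT cells. The changes of these 8 genes ran from 1.73 to 3.72 in shLOXL2 cells and from 1.27 to 4.43 in shCT cells. The smallest in shCT cells was that of Gata6, which is also among the primitive endoderm markers. Hoxb1, a hindbrain patterning gene, rose by 3.72 ± 0.22 in shLOXL2 cells and 4.43 ± 0.22 in shCT cells. Cdx1, a caudal homeobox gene, rose by 2.22 ± 0.16 and 2.35 ± 0.16, and Meis1, a Hox cofactor, by 1.86 ± 0.13 and 1.75 ± 0.13, in the same order of constructs. Among 14 genes of retinoid metabolism and transport 5 rose in shLOXL2 cells and 7 in shCT cells, with none falling. The retinoic acid hydroxylase gene Cyp26a1 rose by 4.29 ± 0.16 and 4.09 ± 0.16, and Dhrs3, a retinaldehyde reductase, by 2.71 ± 0.15 and 2.96 ± 0.15. Of 10 receptors and co-regulators only Rarb and Nrip1 rose in each construct. Rarb, a retinoic acid receptor, rose by 1.78 ± 0.14 in shLOXL2 cells and 1.67 ± 0.14 in shCT cells, and Nrip1, a corepressor of nuclear receptors, by 2.24 ± 0.27 and 2.42 ± 0.27. The limma adjusted p of these named genes was at most 0.000334, except that of Gata6 in shCT cells, which was 0.00869.

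None of the relatives of the 6 genes rose past the threshold. Of 18 other orphan nuclear receptors none rose and 4 fell in each construct (with 1.41% of all genes falling in shLOXL2 cells and 2.09% in shCT cells). They were Nr0b1 and Nr5a2, both of the pluripotency network, Nr1d1, a clock repressor, and Nr4a1, an immediate early gene. Nr0b1 changed by -1.29 ± 0.13 in shLOXL2 cells and -1.11 ± 0.13 in shCT cells (limma adjusted p = 7.60e-05 and 0.000226), and Nr5a2 by -1.19 ± 0.13 and -1.41 ± 0.13 (adjusted p = 0.000165 and 3.61e-05). Nr2f6, the closest relative of the COUP-TF genes, stood at -0.12 ± 0.18 and 0.066 ± 0.18 (adjusted p = 0.845 and 0.91). Among 20 relatives of Zfp703, Tshz1 and Asb4 none passed in either construct, where 3.46% of all genes passed in shLOXL2 cells and 4.25% in shCT cells. Most of the 20 were other Asb genes, several of them with group means below the array medians. Only Zfp503, Tshz2 and Tshz3 were relatives of Zfp703 and Tshz1, so the count says little about relatives of the risers. Zfp503, the paralogue of Zfp703, stood at 0.35 ± 0.13 and 0.48 ± 0.13 (adjusted p = 0.24 and 0.0679). Tshz3 stood at 0.77 ± 0.24 and 0.49 ± 0.24 (adjusted p = 0.109 and 0.331), and Tshz2 at -0.19 ± 0.20 and 0.16 ± 0.20 (adjusted p = 0.761 and 0.777). Arrays with RA lay above those without RA, with no overlap, for Zfp503 and Tshz3 in each construct, while those of Tshz2 overlapped. Such a separation was found in 10.3% of all genes in shLOXL2 cells and 10.7% in shCT cells.

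Genes reported as repressed by Nr6a1 were examined beside its rise, and 2 of 6 fell in each construct. Of all genes 1.41% fell in shLOXL2 cells and 2.09% in shCT cells. Pou5f1, the core pluripotency factor, changed by -0.63 ± 0.11 in shLOXL2 cells and -0.50 ± 0.11 in shCT cells (limma adjusted p = 0.00625 and 0.0243). Dnmt3b, a de novo DNA methyltransferase, changed by -0.96 ± 0.17 and -1.44 ± 0.17 (adjusted p = 0.00605 and 0.000275). Nanog stood at -0.040 ± 0.23 and 0.21 ± 0.23 and Tdgf1, a Nodal co-receptor, at -0.17 ± 0.17 and -0.40 ± 0.17, neither past the threshold (adjusted p of 0.243 or more). The oocyte genes Gdf9 and Bmp15 stood between -0.042 and 0.076. Their group means, 4.04 to 4.36, were below the array medians in all 4 groups. With no background level set, these 2 genes could hardly show a fall. Whether the falls relate to Nr6a1 was not tested.

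**Figure D4:**
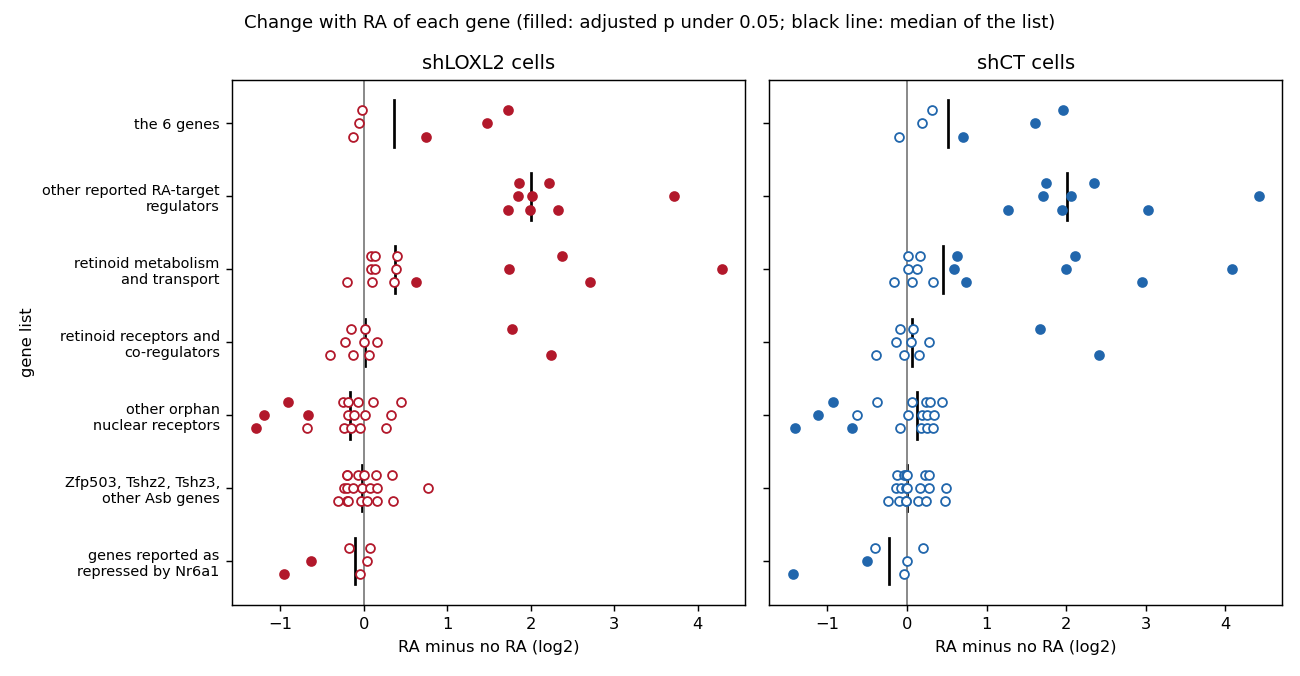
Change with RA (x axis, log2, RA minus no RA) of each gene of the set and of each comparison list, in shLOXL2 cells (left) and shCT cells (right). Filled points had an adjusted p under 0.05 and black lines are list medians. All 8 other RA-target regulators are filled and above 0, whereas 3 of the 6 genes are. The lists and the set were chosen with earlier results of these data known.

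Genes with the pattern most like each riser were sought by Pearson r over the 12 arrays, among 2884 genes whose group means spanned at least 0.5 log2 units. For each riser every array with RA lay above every array without RA, so r mainly reflects this step. The r of deviations within groups is given beside it as a description. Nr6a1 was most like Stra8, a gatekeeper of meiosis (r = 0.989, within groups 0.575), Baiap2l1 (0.988, within groups 0.337) and Dhrs3 (0.985, within groups 0.384). Zfp703 was most like Hoxb9 (r = 0.995, within groups 0.946), the ephrin gene Efnb1 (0.988, within groups 0.717) and Hoxb6 (0.987, within groups 0.636). Deviations of Zfp703 within groups also correlated at 0.832 with those of Nr2f1, which did not pass for RA, and at -0.661 with the main axis. The part of that axis in the values within groups was not tested. Tshz1 was most like Hoxb1 (r = 0.990, within groups 0.740), Meis1 (0.986, within groups 0.654) and Dhrs3 (0.983, within groups 0.538). Above r = 0.95 lay 84 genes for Nr6a1, 72 for Zfp703 and 77 for Tshz1, so these neighbours are few of many. Among themselves the risers had r of 0.952 to 0.966 over the 12 arrays. Within groups these values were -0.36 for Nr6a1 and Zfp703, -0.07 for Nr6a1 and Tshz1, and -0.018 for Zfp703 and Tshz1.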

How the data were processed

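Total RNA of E14 cells had been extracted with Trizol and labelled for an Affymetrix whole-transcript array, per the labels' protocols. The authors deposited log2 signals per transcript cluster for each array. The submitters' processing notes name RMA, limma and R 3.1.1 and give them no role. No scanner files were used, so the normalization was not checked. RA was read as retinoic acid.

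Clusters were named by the platform annotation, with symbols updated through RefSeq gene identifiers (23328 of 23521 clusters with 1 gene matched). The brightest cluster stood for a gene. The 12 arrays were fitted together in R 4.3.3 by limma 3.58.1, helped by statmod 1.5.0, with 1 mean per group, 6 contrasts and Benjamini-Hochberg adjustment over 22180 genes. The fit was tested on simulated data. The Loxl2 check used exact permutation. Promoter windows are RefSeq's, build GRCm38.p6. The named genes were the 6 members, Loxl2, for each riser the 3 genes of highest r, leaving out predicted and numbered symbols, up to 3 genes of smallest p per list, and Pou5f1, Nanog, Nr2f6, Zfp503, Tshz2 and Tshz3. Other members of a list are named where it had 6 or fewer, and Nr1d1 and Nr4a1 complete a count of 4. Gata6, Pdgfrb, Sox1 and the flanking genes named among the additional observations fall outside this rule and were chosen after their values were seen. The members and lists were chosen with earlier results of these data known.

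Deviations of same-numbered arrays with and without RA correlated at 0.558, 0.248 and 0.216 in shLOXL2 cells and at 0.363, 0.0394 and 0.631 in shCT cells. Between constructs they correlated mostly below 0. The number was used as a block within each construct among the alternatives. The alternatives were a replicate block, fixed or random, a variance trend, a filter on dim genes, a further quantile normalization, median centring, averaging the clusters of a gene, array weights, all clusters, a fit to the compared groups alone, and leaving out arrays.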

Additional observations from a re-analysis of the deposited data

How the results depend on the processing

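The rises of Zfp703, Tshz1 and Nr6a1 passed in each construct under every alternative that held them and with each single array left out. For Zfp703 the change then ran, over all of these, from 1.59 to 1.84 in shLOXL2 cells and from 1.77 to 2.14 in shCT cells. The filter on dim genes kept only 2 members, Nr6a1 and Zfp703, and both passed (2 members past the threshold in each construct). With the replicate number as a block over all arrays the rises of Nr6a1 had adjusted p-values of 0.00507 and 0.00589 in shLOXL2 and shCT cells, 3 members passed in each, and no call of a member changed. This block left 1 gene for knockdown on average. The only call of a member that changed was Nr2f2 for RA in shCT cells with array weights (0.36), where the cause was not tested.

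Counts over all genes moved more. For RA in shLOXL2 cells 768 genes passed, against 1675 with a random block for construct and number, 1624 with a fixed one, chosen after seeing the data, 2663 with array weights and 444 to 916 with 1 array left out. For RA in shCT cells 943 passed, against 2047, 1800 and 5224 in the same fits, 599 with only the groups compared and 483 to 1049 with 1 array left out. Knockdown without RA gave 2875 genes and with RA 9 with array weights, against 0 without them. Knockdown on average gave 12 genes, against 0 with the random block, 22 with a variance trend, 27 without dim genes, 1002 with array weights, 1 over all clusters, 37 without the 4 arrays at the end of the axis, chosen after seeing the data, and 0 to 19 with 1 array left out. The causes were not tested, and none of these fits called a member for knockdown.

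Only changes that had not passed turned sign. With array weights these were, for RA in shLOXL2 cells, Nr2f1 (0.0014) and Asb4 (0.096), for knockdown without RA Nr6a1 (0.054), for knockdown on average Nr2f1 (0.0046) and Nr6a1 (0.025), and for the difference of RA responses Nr6a1 (-0.057). The last was also negative after the further quantile normalization (-0.031). Median centring turned Nr6a1 for knockdown with RA (0.010) and Asb4 for knockdown on average (0.0084). Without the 4 arrays Nr6a1 turned for knockdown without RA (0.0014), with RA (0.017) and on average (0.0091). With 1 array left out, changes with RA in shLOXL2 cells ran from -0.10 to 0.075 for Nr2f1, -0.20 to 0.011 for Nr2f2 and -0.18 to 0.12 for Asb4. Knockdown differences without RA ran from -0.024 to 0.19 for Nr2f1, -0.34 to 0.032 for Zfp703, -0.098 to 0.034 for Tshz1 and -0.16 to 0.093 for Asb4. With RA they ran from -0.041 to 0.0064 for Nr6a1 and -0.085 to 0.18 for Asb4. On average they ran from -0.078 to 0.027 for Nr2f1, -0.10 to 0.0034 for Nr2f2 and -0.074 to 0.075 for Asb4. The difference of RA responses ran from -0.012 to 0.098 for Nr6a1 and -0.085 to 0.21 for Asb4. The Loxl2 cluster at 65.0% of control ran from -0.71 to -0.52, and its exact permutation p was 0.06 without replicate 3 of shCT without RA and 0.05 without replicate 1 of shLOXL2 without RA. Signals near the array medians limit what can be said of Nr2f1, Nr2f2 and Asb4.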

Other observations

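The nearest measured protein-coding genes that flank the 6 genes in the order of the RefSeq annotation were looked up after the data were seen. Of 12 flanking genes 1 passed for RA in each construct, where 3.46% of all genes passed in shLOXL2 cells and 4.25% in shCT cells. It was Zadh2, an oxidoreductase gene next to Tshz1, which rose by 1.10 ± 0.14 in shLOXL2 cells and 1.32 ± 0.14 in shCT cells (limma adjusted p = 0.000561 and 0.000109). The flanking genes of Zfp703, Thap1 and Erlin2, stood between -0.082 and 0.069. Nr5a1, an orphan receptor gene next to Nr6a1, stood at -0.15 ± 0.16 in shLOXL2 cells and 0.29 ± 0.16 in shCT cells, and Olfml2a on the other side at 0.26 ± 0.12 and 0.35 ± 0.12, none past the threshold.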
